A study of Mus musculus with 4 samples.

Results

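The clustered histone genes are the replication-dependent genes for the linker histone H1 and the core histones H2A, H2B, H3 and H4. They were taken as all features whose symbol starts with Hist1h, Hist2h, Hist3h or Hist4h, which were 67 of the 32285 features counted in these single-cell RNA libraries. By the GRCm38 annotation (GENCODE vM21), 54 lie in the Hist1 cluster on chromosome 13 (21715763 to 23934851), 10 in the Hist2 cluster on chromosome 3 (96219865 to 96270132), 2 in the Hist3 cluster on chromosome 11 and 1, Hist4h4, on chromosome 6. By protein they divide into 6 H1, 18 H2A, 18 H2B, 12 H3 and 13 H4 genes.

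These histones are made while DNA is copied, so that new DNA can be packed into nucleosomes. Most of their mRNAs do not end in a poly(A) tail. They end just after a short stem-loop, which is bound by the stem-loop binding protein Slbp, and they are degraded when DNA synthesis stops. Libraries primed with oligo(dT) therefore capture this mRNA poorly, and some histone genes also have longer, polyadenylated transcripts that are captured well. Treg cells are CD4+ T cells that restrain immune responses.

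The libraries were made with the 10x Genomics 5' kit from sorted CD4+ Foxp3GFP+ Treg cells of C57BL/6 mice, in which a GFP tag on Foxp3 marks Treg cells. The 4 groups, with 1 library each, are neonatal liver and neonatal spleen from 12-day mice and liver and spleen from 7-week mice, whose stage label reads "aged". The 12-day mice are described as Foxp3GFP-Cre animals with a Rosa26 loxP-Stop-loxP-YFP reporter, a genotype that is not given for the 7-week mice. The number of mice in a library is not given. Since each group is a single library, differences cannot be set against replicate spread, and p-values are not given. Brackets hold exact 95% intervals (Poisson for counts, binomial for shares, conditional binomial for ratios), which cover counting error only.

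With the neonatal libraries first and liver before spleen at each age, an order kept throughout, the libraries held 5359, 5821, 2371 and 5714 filtered cells with medians of 4414, 4478, 2645 and 2902.5 UMIs (unique molecular identifiers, 1 per captured RNA molecule). T cell markers summed to 4264 to 4882 and Treg markers to 1774 to 2170 UMIs per 1000000 (CPM). The erythroid, neutrophil, megakaryocyte and mast cell marker lists each stayed under 1 CPM in every library, other lineage lists reached at most 59.8 CPM, and the hepatocyte list was at 2.46 and 1.65 CPM in the spleens against 9.48 and 15.9 CPM in the neonatal and 7-week liver. Between pairs of libraries, 23 to 91 deposited barcodes were the same.

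The stem-loop is the sequence that sets these mRNAs apart, so it is shown first, as DNA 5′ to 3′ with the 16 bases of the stem-loop in capitals and its flanks in lower case. It was searched on the transcript strand of GENCODE vM21 as GG, 3 pyrimidines, T, 4 bases other than G, A, 3 purines and CC. The lines give the member of each class on which the results below turn, plus the less common forms of Hist1h3e and Hist1h3g.

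Hist1h1e: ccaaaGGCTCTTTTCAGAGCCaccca

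Hist1h2ap: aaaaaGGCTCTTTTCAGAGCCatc

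Hist1h2ae: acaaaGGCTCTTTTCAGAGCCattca

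Hist1h2bj: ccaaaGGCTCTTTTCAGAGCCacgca

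Hist1h3e: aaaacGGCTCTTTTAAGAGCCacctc

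Hist1h3g: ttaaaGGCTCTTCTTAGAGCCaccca

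Hist1h4d: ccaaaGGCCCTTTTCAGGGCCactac

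The capitals of Hist1h2ap lie at chr13:21833029-21833044 on the minus strand, 38 bases past the stop codon, and its annotated transcript ends 3 bases later. Those of Hist1h2ae lie at chr13:23570668-23570683 on the minus strand, 32 bases past the stop codon and 151 bases before the transcript's end. Those of Hist1h4d lie at chr13:23581950-23581965 on the plus strand, 36 bases past the stop codon, and that gene model runs on for 770 bases. A stem-loop was present in 46 of the 67 members in 8 distinct forms, of which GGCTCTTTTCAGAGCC was found in 26 members and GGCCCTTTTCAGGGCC in 7. For members, only matches past the coding sequence were counted. A wider search with the same pattern found a match anywhere in a transcript in 176 of 21834 other protein-coding genes (0.806%). For the other 21 members no match says only that these letters do not follow the coding sequence in the annotated transcript. For many of them that transcript ends near the stop codon.

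The promoters of 62 members were matched in RefSeq (GRCm38.p6), as windows of 300 bases that reach from 250 bases before to 50 bases after the start of the gene. CCAAT, searched on both strands, occurred in 53 of them (85.5%) against 37.4% of all 32851 promoters. It was in each matched H1 (6), H2A (18), H2B (16) and H3 (10) promoter and in 3 of 12 H4 promoters. None of the 3 motifs searched contains another. TATAAA occurred in 56.5% of the members and 13.6% of all promoters. The octamer ATTTGCAT occurred in 20.97% of the members and 1.74% of all promoters, in 7 H2A and 6 H2B genes and no member of the other classes. The 150 bases before the start are shown for 4 members that stand for these patterns, with the motifs, on either strand, in capitals.

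Hist1h2ap: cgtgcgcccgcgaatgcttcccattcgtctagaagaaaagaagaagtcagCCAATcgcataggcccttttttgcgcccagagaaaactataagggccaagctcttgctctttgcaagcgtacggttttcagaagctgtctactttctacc

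Hist1h1b: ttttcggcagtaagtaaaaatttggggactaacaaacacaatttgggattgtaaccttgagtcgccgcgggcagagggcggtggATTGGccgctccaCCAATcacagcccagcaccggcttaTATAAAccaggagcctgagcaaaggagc

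Hist1h2bk: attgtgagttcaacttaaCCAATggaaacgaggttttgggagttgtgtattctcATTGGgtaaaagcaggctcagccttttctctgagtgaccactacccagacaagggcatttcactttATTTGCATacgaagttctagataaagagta

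Hist1h4i: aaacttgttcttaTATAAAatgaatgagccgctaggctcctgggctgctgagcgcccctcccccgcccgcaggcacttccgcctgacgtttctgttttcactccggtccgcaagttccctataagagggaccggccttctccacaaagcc

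These windows are chr13:21833476-21833625 (minus strand) for Hist1h2ap, chr13:21780626-21780775 (minus) for Hist1h1b, chr13:22035671-22035820 (plus) for Hist1h2bk and chr13:22041363-22041512 (minus) for Hist1h4i. Hist1h2ap and the linker histone gene Hist1h1b carry CCAAT 100 bases and 66 and 53 bases before the start, the H2B gene Hist1h2bk adds the octamer at 30 bases, and the H4 gene Hist1h4i has no CCAAT in the window. Motif matches are letters in a window and are not binding sites.

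Summed histone RNA was highest in the neonatal liver library and lowest in the 7-week spleen library. The 67 genes together took 1897 CPM in liver [1881 to 1912] and 1036 in spleen [1025 to 1048] at 12 days, and 787 in liver [767 to 808] and 565 in spleen at 7 weeks [554 to 576], or 0.190%, 0.104%, 0.0787% and 0.0565% of UMIs. The intervals do not overlap. The liver to spleen ratio was 1.83 [1.80 to 1.86] at 12 days and 1.39 [1.35 to 1.44] at 7 weeks. The neonatal to 7-week ratio was 2.41 [2.34 to 2.48] in liver and 1.83 [1.78 to 1.87] in spleen. Mki67, a marker of cells in cycle, had the same order of libraries with larger ratios: 126, 54.9, 35.8 and 21.4 CPM, or 2.29 [2.16 to 2.43] for neonatal liver over neonatal spleen and 3.52 [3.1002 to 4.02] for neonatal over 7-week liver.

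The histone UMIs were held by few cells. A histone UMI was found in 70.7% of cells in liver [69.5 to 71.9] and 67.8% in spleen [66.6 to 69.0] at 12 days, and 60.7% in liver [58.7 to 62.7] and 58.8% in spleen at 7 weeks [57.5 to 60.1], with a median of 1 per cell in each. After each cell was thinned to 1000 UMIs these shares were 33.4% [32.1 to 34.7], 30.01% [28.8 to 31.2], 33.2% [31.2 to 35.2] and 28.5% [27.3 to 29.7], higher in liver than in spleen at both ages, while the intervals overlapped between the ages of each tissue. The highest cells held 669, 835, 376 and 479 histone UMIs. In the order of libraries, 50% of the histone UMIs lay in 125, 82, 54 and 183 cells, which were 2.33%, 1.41%, 2.28% and 3.203% of cells. The 10 cells with the most histone UMIs held 7.91% and 11.6% of them in the neonatal libraries but 39.5% in 7-week liver and 27.4% in 7-week spleen. Without those 10 cells of each library the 7-week sums fell to 483 and 413 CPM, the neonatal sums were 1756 and 923 CPM, and the neonatal to 7-week ratio in liver was 3.63. These were 10 of 5359 neonatal and 10 of 2371 7-week liver cells, chosen by their histone UMIs, which by itself pushes that ratio up.

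The differences between libraries were smaller in cells with no Mki67 UMI and in cells of middle depth. Among cells with no Mki67 UMI the sums were 459, 379, 441 and 342 CPM. The neonatal to 7-week ratio was then 1.04 in liver and 1.11 in spleen, and the liver to spleen ratio was 1.21 at 12 days and 1.29 at 7 weeks. The direction by age changed with depth. Under 1000 UMIs these cells had 5033 CPM in neonatal and 844 in 7-week liver. At 2000 to under 4000, 4000 to under 8000 and 8000 to under 16000 UMIs, neonatal liver had 320, 322 and 494 CPM. The 7-week liver values there were 376, 428 and 558 CPM. Spleen had 346, 291 and 345 CPM at 12 days against 334, 300 and 418 at 7 weeks. Among cells of 2000 to under 4000 UMIs, the sums were 405, 448, 394 and 355 CPM. There the liver to spleen ratio at 12 days turned to 0.904 and the neonatal to 7-week ratio in liver was 1.03.

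**Figure D1:**
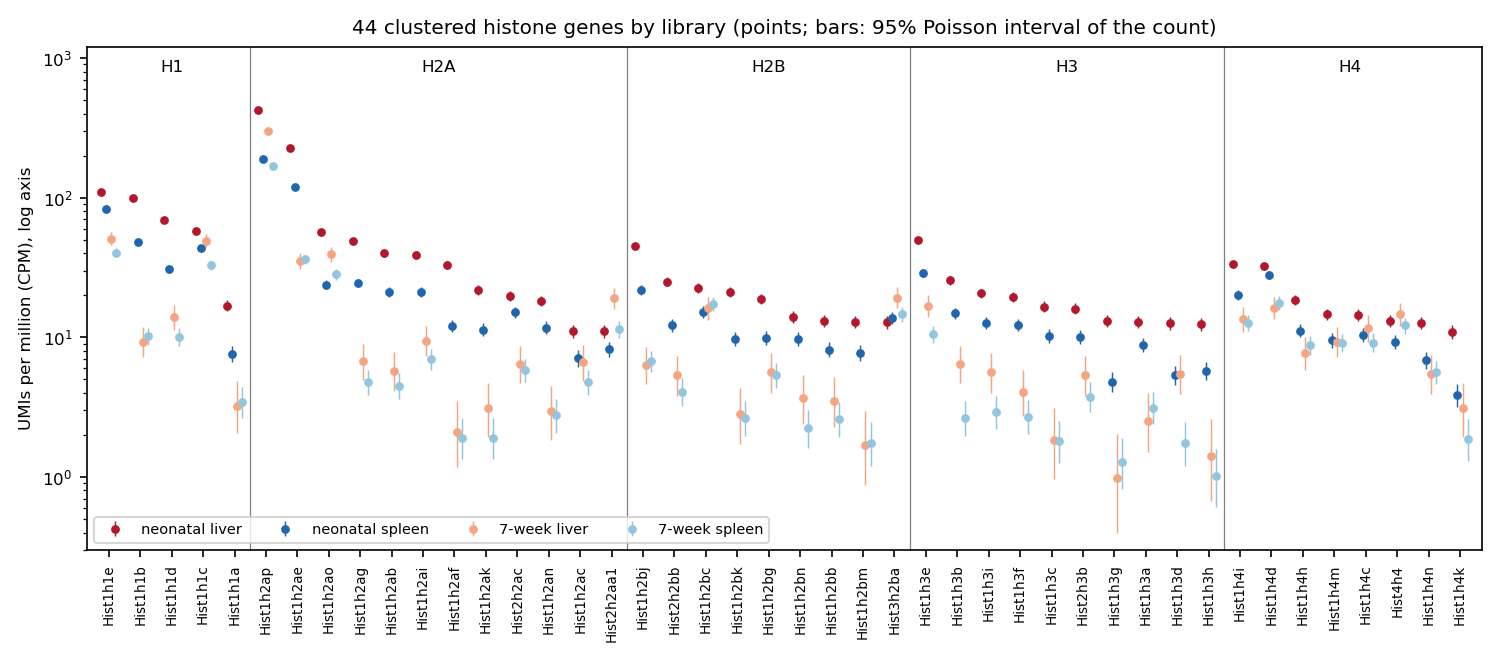
CPM (log axis) of the 44 histone genes that reached 10 CPM in a library, by protein class and ordered within a class by the neonatal liver value; points are the 4 libraries and bars the 95% Poisson interval of the count. Neonatal liver is the highest point for most genes, while Hist1h2ap and Hist1h2ao in 7-week liver (300.5 and 39.3 CPM) stand above neonatal spleen (188 and 23.9 CPM). These 7-week liver values depend on few cells. Among the 145 cells with an Mki67 UMI there, leaving out the 10 cells with the most histone UMIs took Hist1h2ap from 2160 to 288 CPM and Hist1h2ao from 304 to 28.1 CPM.

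Of the 67 members, 44 reached 10 CPM in at least 1 library, and these are described by name. The other 23 stayed between 0 and 9.51 CPM and together held 3.16% to 4.28% of the histone UMIs of a library. They include the 3 testis histone genes: Hist1h1t had 0.0345 CPM in neonatal liver, and Hist1h2ba and Hist1h2aa had no UMI in any library, which allows up to 0.0985 CPM in neonatal spleen and 0.422 CPM in 7-week liver by a floor of 3 counts. UMI counts are not divided by transcript length, so shares of histone UMIs are not levels per length.

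Among the linker histones, which bind the DNA between nucleosomes, the change with age differed widely. Hist1h1b (H1.5; ENSMUSG00000058773; chr13:21779883-21780625) had 99.8 CPM in liver and 47.9 in spleen at 12 days, and 9.29 in liver and 10.2 in spleen at 7 weeks. Both neonatal libraries lay above both 7-week libraries, at 10.7-fold [8.42 to 13.9] in liver and 4.70-fold [4.04 to 5.49] in spleen. Hist1h1a had 16.9, 7.61, 3.24 and 3.45 CPM and Hist1h1d 69.6, 30.7, 13.9 and 10.0 CPM, with the same division. Hist1h1c (H1.2), in contrast, had 57.9, 43.6, 49.3 and 32.7 CPM, so that its libraries divided by tissue and the age ratio was 1.17 [1.05 to 1.32] in liver. Hist1h1e (H1.4) lay between these, with 110 CPM in liver and 82.6 in spleen at 12 days, and 51.0 in liver and 40.5 in spleen at 7 weeks.

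The H2A genes took the largest part of the histone UMIs, 50.6%, 45.4%, 56.2% and 49.97% by library. Hist1h2ap (ENSMUSG00000094777; chr13:21833026-21833507) had 422 CPM in liver and 188 in spleen at 12 days, and 300.5 in liver and 168 in spleen at 7 weeks. Its liver to spleen ratio was 2.25 [2.18 to 2.32] at 12 days and 1.78 [1.69 to 1.89] at 7 weeks, and its age ratio only 1.41 [1.34 to 1.47] in liver and 1.12 [1.07 to 1.17] in spleen. These age ratios depend on few 7-week cells. In cells with an Mki67 UMI, leaving out the 10 cells with the most histone UMIs moved the age ratio of Hist1h2ap from 0.618 to 4.53 in liver and from 0.587 to 1.61 in spleen. That choice of cells by itself pushes the ratio up, as described below. Hist1h2ae (ENSMUSG00000069272; chr13:23570517-23571220) had 226, 118, 35.3 and 36.4 CPM. That gene was 6.38-fold [5.63 to 7.27] higher in neonatal than in 7-week liver, while its 7-week libraries did not differ beyond counting error (ratio 0.972, [0.837 to 1.12]). Hist1h2ao followed Hist1h2ap, with 57.1, 23.9, 39.3 and 28.2 CPM. Hist1h2af, at 33.2, 12.1, 2.11 and 1.91 CPM, had the largest age ratio of the named members in liver, 15.7. Hist2h2aa1 ran the other way, with 11.03, 8.20, 19.1 and 11.4 CPM.

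The H2B, H3 and H4 genes were lower, each under 51 CPM. Of the H2B genes, Hist1h2bj had 45.0 CPM in liver and 21.9 in spleen at 12 days, and 6.33 in liver and 6.74 in spleen at 7 weeks. Hist3h2ba was highest in 7-week liver instead, at 12.8, 13.8, 19.3 and 14.6 CPM. Of the H3 genes, Hist1h3e had 50.04, 28.7, 16.7 and 10.6 CPM, and Hist1h3b had 25.6, 14.8, 6.47 and 2.65 CPM. Of the H4 genes, which all encode the same protein, Hist1h4i had 33.3, 20.1, 13.5 and 12.7 CPM and Hist1h4d had 32.2, 27.8, 16.3 and 17.6 CPM. Hist4h4 was no higher at 12 days, with 13.1, 9.29, 14.6 and 12.2 CPM.

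A gene was counted as higher or lower where it reached 10 CPM in the higher library of a pair and differed at least 2-fold. In neonatal liver over neonatal spleen 13 of 44 measured members were higher and 0 lower, where 3.26% of all 7557 measured genes were higher and 1.11% lower. The median log2 ratio of the members was 0.76 and that of all genes -0.00. In 7-week liver over 7-week spleen 0 of 15 measured members were higher and 0 lower (1.55% and 0.734% of all genes), with a median log2 ratio of 0.35. In neonatal over 7-week liver 33 of 44 were higher and 0 lower (5.85% and 5.55% of all genes), with a median of 1.88. In neonatal over 7-week spleen 19 of 30 were higher and 0 lower (3.13% and 3.12% of all genes), with a median of 1.51. Members passed the 10 CPM minimum mostly through a neonatal library, which favours higher over lower counts. In cells with no Mki67 UMI the higher members were 1 of 14 and 0 of 12 between tissues at 12 days and 7 weeks (2.57% and 1.497% of all genes), and 5 of 17 and 2 of 13 with neonatal over 7-week liver and spleen (3.94% and 2.08%). There 2 and 1 members were lower at 12 days (5.04% and 2.95%). In cells of 2000 to under 4000 UMIs they were 0 of 10 and 0 of 11 between tissues (2.86% and 1.205%). With neonatal over 7-week liver 3 of 14 were higher and 3 lower there (4.19% and 3.55%), and in spleen 4 of 14 were higher and 2 lower (2.54% and 3.24%). In thinned cells 4 of 31, 1 of 15, 14 of 31 and 12 of 22 were higher (3.35%, 1.57%, 5.77% and 3.07%), and 1 was lower at 12 days in liver (5.36%).

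Histone UMIs followed Mki67 in every library. In cells with an Mki67 UMI the sum was 5231 CPM in liver (917 cells) and 4336 in spleen (515 cells) at 12 days, and 3901 in liver (145 cells) and 3776 in spleen at 7 weeks (219 cells). The ratios to cells without one were 11.4 [11.1 to 11.6], 11.4 [11.2 to 11.7], 8.84 [8.39 to 9.32] and 11.04 [10.6 to 11.5]. Cells with an Mki67 UMI were also deeper, with medians of 8297, 8403, 3998 and 4437 UMIs against 4130, 4349.5, 2560 and 2879. In cells thinned to 1000 UMIs the ratios were 7.69, 9.62, 9.08 and 10.2. Without the 10 cells with the most histone UMIs they were 10.5, 9.98, 2.10 and 4.53, so the 7-week values rest largely on those cells.

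The share rose further with the number of Mki67 UMIs. Cells with 0, 1, 2 to 4 and 5 or more Mki67 UMIs had 459, 1036, 4392 and 8737 histone CPM in neonatal liver and 379, 1039, 3890 and 7961 in neonatal spleen. In the 7-week libraries the steps were 441, 843, 1408 and 21478 CPM in liver and 342, 451, 3990 and 22186 CPM in spleen. The last step rests on 12 and 16 cells there, against 261 and 123 in the neonatal libraries. In both ages the cells with 5 or more Mki67 UMIs each held a histone UMI, whereas 9.38%, 9.13%, 14.5% and 25.1% of all cells with an Mki67 UMI held none.

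**Figure D2:**
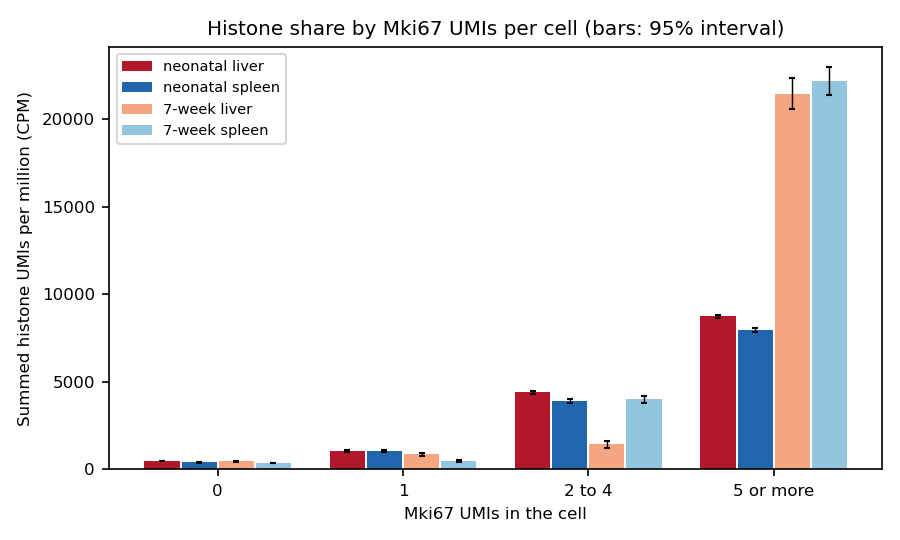
Summed histone CPM in cells grouped by their number of Mki67 UMIs; bars are the 4 libraries and lines the 95% interval of the count. The bars rise from 459, 379, 441 and 342 CPM in cells without Mki67 to 8737, 7961, 21478 and 22186 CPM in cells with 5 or more UMIs.

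Cells rich in histone RNA were not all marked by Mki67. Cells with 10 or more histone UMIs numbered 586, 370, 48 and 54, or 10.9% [10.1 to 11.8], 6.36% [5.74 to 7.01], 2.02% [1.496 to 2.68] and 0.945% [0.711 to 1.23] of cells. Of these, 139, 131, 22 and 16 had no Mki67 UMI. A sum of 10 histone UMIs is easier to reach in deep cells, and the medians of these cells were 11721.5, 9949, 7173.5 and 9350.5 UMIs. Some were shallow, however: 49 in neonatal liver and 46 in neonatal spleen had under 1000 UMIs, and 21 and 40 had 1000 to under 2000. Shallow cells seldom show an Mki67 UMI, and how many of the cells with no Mki67 UMI were shallow was not counted.

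S phase genes (44 listed) and G2M genes (51 listed) were then counted in thinned cells. Cells with 3 or more UMIs of both lists had 6331 histone CPM in liver (480 cells) and 5473 in spleen (311) at 12 days, and 4413 in liver (63) and 3470 in spleen at 7 weeks (134). Cells with 3 or more S UMIs but fewer G2M UMIs were at 504, 489, 414 and 403 CPM, and cells with neither at 321, 324, 411 and 344 CPM. Cells with the S list alone were above those with neither in the neonatal libraries, where the intervals did not overlap ([421 to 599] against [301 to 342] in liver and [419 to 567] against [306 to 342] in spleen), but not beyond counting error in the 7-week libraries. Cells with 3 or more G2M UMIs but fewer S UMIs were at 1090, 1080, 662 and 390 CPM. The cells with both held 56.7%, 41.1%, 21.4% and 19.2% of the thinned histone UMIs. These ranges are limits set on counts and not cell cycle phases, and 2209, 2476, 1143 and 2690 cells lay within 1 UMI of a limit.

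Of the 44 named members, 35 were higher in cells with an Mki67 UMI with an interval above 1 in all 4 libraries. Counted by the 2-fold rule, 48 of 49 measured members were higher in neonatal liver (6.64% of all genes), 47 of 48 in neonatal spleen (6.11%), 33 of 38 in 7-week liver (5.72%) and 38 of 43 in 7-week spleen (5.72%), and 0 were lower in any library (1.28%, 1.52%, 4.09% and 1.71% of all genes). Of these members 35, 38, 26 and 33 reached 10 CPM only in the cells with Mki67 and so could not be lower there. Of those at 10 CPM or more also in cells without Mki67, 13 of 14, 9 of 10, 7 of 12 and 8 of 10 were higher. Hist1h2ap had the largest absolute step, with 1335 against 29.1 CPM in liver and 1024 against 21.4 in spleen at 12 days, and 2160 against 93.8 in liver and 1746 against 58.8 in spleen at 7 weeks. The H3 gene Hist1h3b had ratios of 17.2, 44.3, 73.8 and 75.5, the 7-week values with wide intervals ([29.2 to 239] and [35.0 to 186]). Intervals reached 1 in at least 1 library for Hist2h3b, Hist4h4, Hist1h4m, Hist1h4n, Hist1h3f and Hist1h3a, and in 2 for Hist2h2aa1 and Hist1h4c. Hist3h2ba did not follow Mki67, with ratios of 1.38 [1.11 to 1.71], 1.02 [0.782 to 1.33], 1.11 [0.601 to 1.90] and 0.714 [0.375 to 1.24].

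How closely a member followed Mki67 went with the annotated end of its gene. Of the 31 named members with a stem-loop, 14 have a gene model that runs 100 bases or more past it, as Hist1h2ae and Hist1h4d do above, and 17 end sooner, as Hist1h2ap does. The median ratio between cells with and without an Mki67 UMI was 5.88, 5.20, 2.31 and 3.43 for the 14 and 10.6, 15.8, 11.5 and 27.4 for the 17. At 7 weeks the counts behind these ratios depend on few cells. Without the 10 cells with the most histone UMIs, the summed share in cells with an Mki67 UMI fell from 3901 to 926 CPM in liver and from 3776 to 1549 in spleen. The medians without those cells were not computed. The 14 with a longer model held 51.6%, 59.2%, 50.4% and 51.3% of the named members' CPM in cells with no Mki67 UMI, and the 17 held 28.8%, 24.95%, 38.9% and 37.4%. The ranges overlap, since Hist1h2ae, with a longer model, had ratios of 18.2, 27.0, 17.6 and 27.7. Among the 14 are Hist3h2ba, Hist4h4, Hist1h4c and Hist1h1c, the 4 lowest named members in neonatal liver. Hist2h2aa1, which ends sooner, was also low, with ratios of 4.14, 2.15, 1.12 and 1.39. The limit of 100 bases and the grouping were chosen after the levels were seen. Counts come from the 5' part of transcripts, so the form of the 3' end was not measured.

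**Figure D3:**
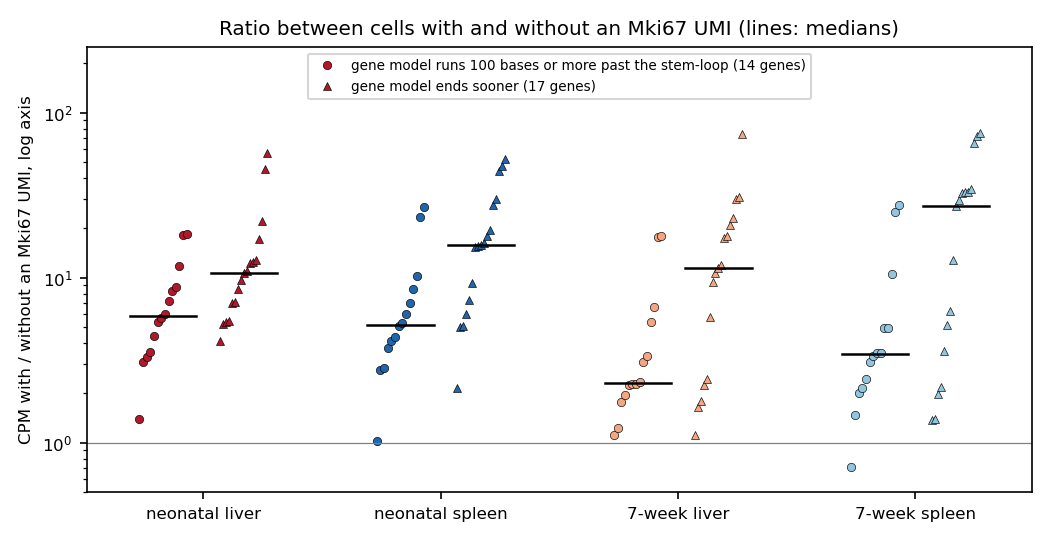
Ratio of CPM between cells with and without an Mki67 UMI (log axis) for the 31 named histone genes with an annotated stem-loop, by library; circles are the 14 genes whose model runs 100 bases or more past the stem-loop, triangles the 17 that end sooner, and black lines the medians. The circles' medians are 5.88, 5.20, 2.31 and 3.43 and the triangles' medians 10.6, 15.8, 11.5 and 27.4, with overlapping ranges. Only 145 and 219 cells with an Mki67 UMI lie behind the 7-week liver and spleen ratios, and few of them hold most of the histone UMIs.

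The make-up of the histone UMIs differed with age. In cells with an Mki67 UMI, Hist1h2ap took 25.5% of histone UMIs in liver [25.1 to 25.9] and 23.6% in spleen [23.1 to 24.2] at 12 days, and 55.4% in liver [53.5 to 57.2] and 46.2% in spleen at 7 weeks [44.8 to 47.7]. Hist1h2ao moved the same way, at 3.48%, 3.02%, 7.79% and 8.003%. Hist1h2ae went the other way, at 12.7%, 13.9%, 5.99% and 9.76%, as did Hist1h1b, at 5.49%, 5.37%, 1.62% and 3.40%. By class, the H2A genes took 54.8% and 53.9% in the neonatal and 75.3% and 71.1% in the 7-week libraries, and the H1 genes 17.3% and 16.1% against 8.30% and 11.9%. In cells with no Mki67 UMI the Hist1h2ap shares were 6.34%, 5.65%, 21.3% and 17.2%, again higher in both 7-week libraries.

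The higher 7-week shares depended on cells with many histone UMIs in part. Without the 10 cells with the most histone UMIs of each library, the Hist1h2ap shares in cells with an Mki67 UMI were 27.0%, 24.6%, 31.1% and 37.3%. In cells of 4000 to under 8000 UMIs with an Mki67 UMI they were 21.2%, 15.96%, 53.0% and 43.4%. Among cells with 20 or more histone UMIs the median share was 27.7% (353 cells) and 22.0% (187 cells) in the neonatal libraries and 60.0% (13 cells) and 47.3% (23 cells) in the 7-week libraries. The lowest 7-week cell was at 30.4% in liver and 30.1% in spleen, while 61 neonatal liver cells (17.3%, [13.5 to 21.6]) and 44 neonatal spleen cells (23.5%, [17.6 to 30.3]) were under 10%. None of 13 and none of 23 cells in the 7-week libraries was under 10%, which allows shares of up to 24.7% and 14.8% by the exact interval. At a limit of 10 histone UMIs instead, 225 of 586, 186 of 370, 3 of 48 and 11 of 54 cells were under 10%, so such cells occurred at 7 weeks too. The 61 and 44 neonatal cells held medians of 26 and 24 histone UMIs, against 121.5 and 112 in the other cells, and 44 and 33 of them had an Mki67 UMI.

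**Figure D4:**
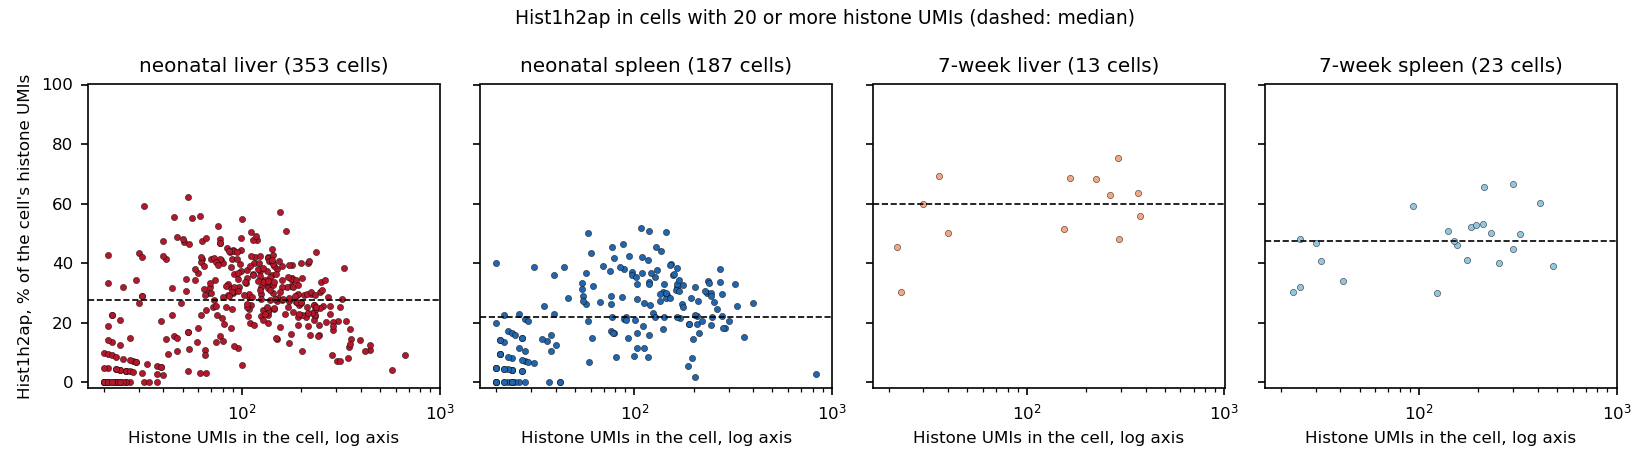
Percent of a cell's histone UMIs that belong to Hist1h2ap, against its histone UMIs (log axis), for cells with 20 or more histone UMIs; each point is a cell and the dashed line the median of 27.7%, 22.0%, 60.0% and 47.3%. In the neonatal panels 61 and 44 cells lie under 10%, mostly with few histone UMIs but including cells with 669 and 835, and none of the 13 and 23 cells of the 7-week panels does; at 10 or more histone UMIs, not plotted, 3 and 11 7-week cells lie under 10%.

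Between cells with an Mki67 UMI, the summed histone share differed less by age than between whole libraries, at 1.34 [1.29 to 1.39] in liver and 1.15 [1.11 to 1.19] in spleen. Most single members were nevertheless higher at 12 days: of the 44 named, 40 had a ratio above 1 in liver (median 2.66) and 40 in spleen (median 2.001). By the 2-fold rule 33 of 49 measured members were higher in liver and 0 lower (7.99% and 9.56% of all genes), and 24 of 48 were higher in spleen and 1, Hist1h2ao, lower (3.62% and 7.07% of all genes). Hist1h1b was 4.54-fold [3.38 to 6.24] higher in liver and 1.81-fold [1.53 to 2.16] in spleen. Hist1h2ap had ratios of 0.618 [0.586 to 0.652] and 0.587 [0.558 to 0.617], and Hist1h2ao of 0.599 [0.519 to 0.693] and 0.434 [0.381 to 0.494].

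These values turned on few 7-week cells. Without the 10 cells with the most histone UMIs the ratio of the sums was 5.21 in liver and 2.44 in spleen. In liver 42 of 48 members were then higher (10.2% of all genes) and in spleen 37 of 48 (4.62%), with 0 lower. Hist1h2ap turned to 4.53 and 1.61. The cells left out were 10 of 917 neonatal and 10 of 145 7-week cells in liver, and 10 of 515 and 10 of 219 in spleen. Chosen by their histone UMIs, they were a larger part of the 7-week cells, which by itself pushes these ratios up. In cells of 4000 to under 8000 UMIs with an Mki67 UMI, where the median depths were 6009 and 5822 UMIs in liver and 5721.5 and 5547 in spleen, the ratio of the sums was 0.685 [0.643 to 0.730] in liver and 1.16 [1.08 to 1.26] in spleen. There 15 of 48 members were higher and 5 lower in liver (10.4% and 8.21% of all genes), and 21 of 46 were higher and 2 lower in spleen (7.70% and 8.82%). The lower ones were Hist1h2ap and Hist1h2ao in both tissues and Hist2h2aa1, Hist1h3d and Hist1h3b in liver. Hist1h2ap had ratios of 0.274 and 0.428 in these cells.

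Counts of single H2A genes carry a further limit. Of the 100-base stretches of the Hist1h2ap and Hist1h2ao transcripts, 7.83% and 7.35% occur in no other annotated gene, the lowest shares among the named members. The share was 69.3% for Hist1h2ae and 100% for Hist1h1b, Hist1h1a and Hist1h4d. It was under 50% for 17 of the 44, and 15 of the 44 overlap another annotated gene. Reads that fit several histone genes alike may be assigned or dropped according to the counting, so values of such members are uncertain, and the part of this in the age difference of Hist1h2ap was not tested. Without Hist1h2ap and Hist1h2ao the summed histone share was 1417, 824, 448 and 368 CPM, in the same order of libraries as the full sum.

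By cell depth, the histone share was lowest in the middle of the range and high at both ends in the neonatal libraries. In all deposited barcodes of neonatal liver it was 5046 CPM at 500 to under 1000 UMIs, 1552 at 1000 to under 2000, 433 at 2000 to under 4000, 616 at 4000 to under 8000, 2808 at 8000 to under 16000 and 5139 at 16000 or more. Neonatal spleen had 2687, 1771, 459, 431, 1360 and 3675 CPM over the same ranges. The 7-week libraries rose less at the low end. They had 916, 620, 392, 918, 2200 and 7502 CPM in liver and 975, 469, 356, 422, 2085 and 3447 CPM in spleen, where the last value of each rests on 2 and 4 barcodes.

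Mki67 itself was also high at both ends in the neonatal libraries. In liver it had 183 CPM under 1000 UMIs, 39.3 at 2000 to under 4000 and 186 at 8000 to under 16000. In spleen the same ranges had 80.1, 25.4 and 82.5 CPM. Among barcodes with no Mki67 UMI the rise at high depth was smaller, with 322 CPM at 2000 to under 4000 UMIs and 475 at 8000 to under 16000 in neonatal liver and 348 and 342 in neonatal spleen, where it was 497 at 16000 or more. In the 7-week libraries these barcodes went from 374 to 554 CPM in liver and from 336 to 396 CPM in spleen over the same ranges. Under 1000 UMIs the neonatal barcodes with no Mki67 UMI still had 4875 and 2460 CPM. In neonatal liver these were 2578 of 2875 barcodes, so leaving out the rest could change that sum little. An Mki67 UMI was found in 42.3% and 82.7% of the neonatal liver barcodes in the top 2 ranges and in 10.3% under 1000 UMIs. At a given Mki67 share a shallow barcode shows such a UMI less often, so this split cannot compare the ends.

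**Figure D5:**
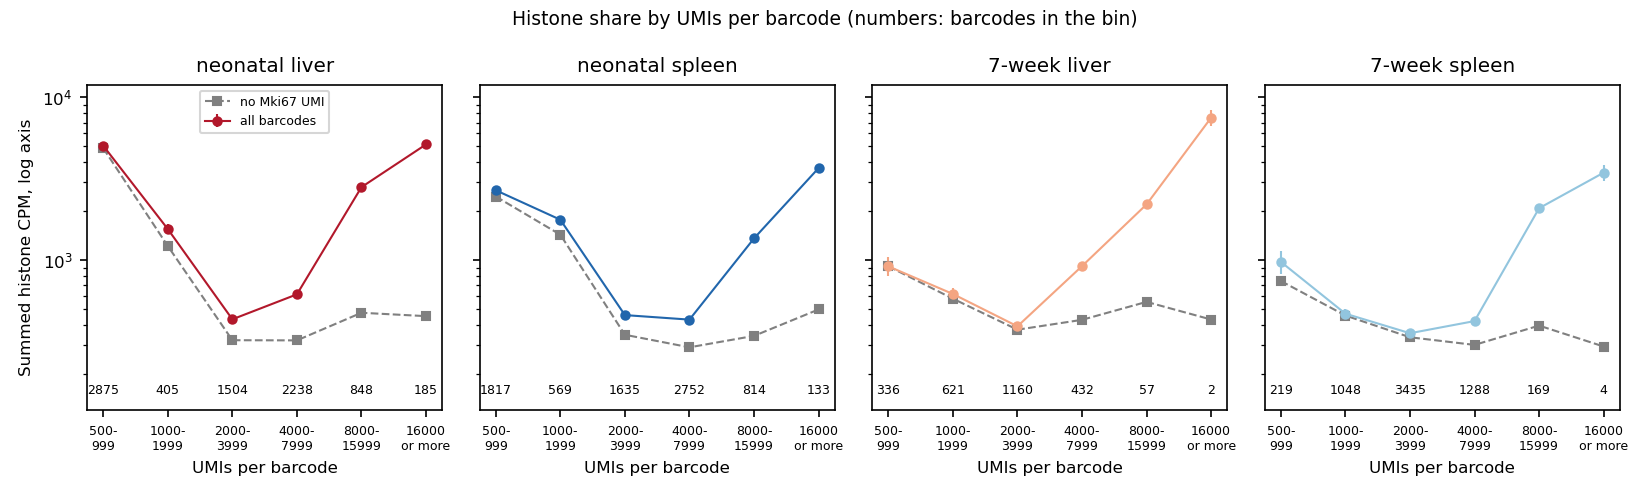
Summed histone CPM (log axis) by UMIs per barcode in all deposited barcodes of each library; circles are all barcodes with the 95% interval, grey squares barcodes with no Mki67 UMI, and the numbers above the axis are barcodes per range. In neonatal liver the circles fall from 5046 to 433 CPM and rise to 5139, while the squares fall from 4875 to 322 CPM and stay at 475 or lower from there.

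The barcodes under 1000 UMIs numbered 2875 in liver and 1817 in spleen at 12 days, and 336 in liver and 219 in spleen at 7 weeks. A histone UMI was present in 84.1% [82.8 to 85.5], 66.2% [64.0 to 68.4], 44.05% [38.7 to 49.5] and 30.1% [24.1 to 36.7] of them. No barcode under 1000 UMIs in neonatal liver held more than 28 histone UMIs, so the high share there was spread over many barcodes. In neonatal liver these barcodes had 426 Foxp3 CPM and 1465 Cd3e CPM, against 549 and 1631 at 2000 to under 4000 UMIs, so RNA of T cells was found there. Their S list RNA was 2438 CPM and their G2M list RNA 5077 CPM, against 958 and 1934 CPM at 2000 to under 4000 UMIs. Hist1h2ap took 8.13% of their histone UMIs in neonatal liver and 6.86% in neonatal spleen, less than in cells with an Mki67 UMI, and H1 genes took 24.6% and 26.0%. The filters at 500 genes and at 10% mitochondrial UMIs together removed 82.1% of them in both neonatal libraries and 54.2% and 58.9% in the 7-week libraries. Whether they are cells was not tested. Leaving all cells under 1000 UMIs out of the filtered sets changed the sums to 1849 and 1011 CPM in neonatal liver and spleen.

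The histone share did not follow mitochondrial RNA in a fixed direction. In all deposited barcodes with under 2% mitochondrial UMIs it was 2311 CPM in liver and 1134 in spleen at 12 days, and 778 in liver and 559 in spleen at 7 weeks. At 2 to 5% it was 1564, 832, 762 and 495 CPM, lower in the neonatal libraries and 7-week spleen and within counting error in 7-week liver. Among barcodes of 2000 to under 4000 UMIs the same pair of ranges gave 467 and 369 CPM in neonatal liver, but 415 and 493 in neonatal spleen, 375 and 495 in 7-week liver and 336 and 456 in 7-week spleen. At this depth the order of these ranges turned around in both spleen libraries and stayed in neonatal liver, and in 7-week liver the higher range was above the lower one. In barcodes of 500 to under 1000 UMIs the order did not turn in the spleens. The same pair gave 5548 and 4745 CPM in neonatal liver and 3172 and 2553 in neonatal spleen. It gave 826 and 978 in 7-week liver, within counting error, and 1707 and 537 in 7-week spleen (34 and 63 barcodes). Barcodes at 10 to 20% mitochondrial UMIs were few (90, 120, 13 and 42) and shallow (medians of 759.5, 846.5, 677 and 658.5 UMIs), and had 2304, 1309, 763 and 1423 CPM. Over cells thinned to 1000 UMIs, the Pearson correlation of histone UMIs with the mitochondrial share was -0.03, -0.05, -0.02 and 0.02 and that with Mki67 UMIs was 0.39, 0.34, 0.36 and 0.32 (4868, 5505, 2217 and 5625 cells of the same library, given as a description).

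The genes most like the histone sum were sought among the 4028 other genes with 25 CPM or more in each library. They were ranked by the mean over libraries of the Pearson correlation across thinned cells, where the points are cells of 1 library. The median gene had a mean r of -0.00. Mki67, at 21.4 CPM in 7-week spleen, was below that minimum and was not ranked, and its correlations are given above. Top2a, the topoisomerase that untangles replicated DNA, came first with a mean r of 0.43 (0.45, 0.47, 0.38 and 0.42 by library). Stmn1 and Hmgb2 followed with 0.40 and 0.37, then the histone variant gene H2afx with 0.34, the tubulins Tuba1b (0.33) and Tubb5 (0.30), Ptma (0.27), the condensin gene Smc2 (0.24), Hmgb1 (0.22) and Hmgn2 (0.22). Top2a itself had 145, 74.1, 30.4 and 25.4 CPM.

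The histone variant genes outside the clusters include replacement histones, which can enter chromatin without DNA replication. Of 11 listed genes, 9 were measured. By the 2-fold rule 5 of these were higher at 12 days in liver (5.85% of all genes), 3 in spleen (3.13%), and 0 between tissues. H2afx, the variant that marks DNA breaks, had 206, 123, 63.1 and 64.7 CPM, and Cenpa, the H3 variant of centromeres, was 2.40-fold higher in neonatal liver and 2.13-fold in neonatal spleen. H2afz had 2253, 1896, 951 and 1156 CPM. H3f3a and H3f3b, which encode the replacement H3 and were named after their values were seen, stayed under 2-fold in each comparison, and H3f3b had ratios of 1.01, 0.955, 1.06 and 1.16 between cells with and without an Mki67 UMI. Others of the list were higher in cells with Mki67: the same ratios were 11.5, 7.83, 3.37 and 3.73 for H2afx, 6.03, 8.05, 5.90 and 5.95 for Cenpa, 2.59, 2.41, 2.49 and 2.32 for H2afz, and 2.93, 2.81, 2.56 and 2.41 for H2afv, also named after its values were seen.

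Of the genes that process and transcribe histone mRNA, 18 were measured with age. By the 2-fold rule 2 were higher at 12 days in liver (Ccne1 and Nelfe; 5.85% of all genes) and 1 in spleen (Ccne1; 3.13%), and 0 of 17 between tissues. Slbp, the stem-loop binding protein, had 164 CPM in liver and 132 in spleen at 12 days, and 97.3 in liver and 92.2 in spleen at 7 weeks. Its ratios between cells with and without an Mki67 UMI, 2.47, 2.44, 1.93 and 2.17, were smaller than the summed histone ratios of 8.84 to 11.4. Npat, the transcriptional coactivator of histone genes, which was also named after its values were seen, stayed between 7.29 and 10.99 CPM.

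Histone chaperones, which carry new histones to DNA, were higher at 12 days for 6 of 15 measured in liver (5.85% of all genes) and 4 of 15 in spleen (3.13%). Between tissues 0 of 15 were higher at 12 days (3.26%) and 0 of 13 at 7 weeks (1.55%). Asf1b, the H3-H4 chaperone of dividing cells, had 80.3, 42.1, 17.5 and 15.8 CPM and was 19.1-, 17.6-, 9.60- and 14.7-fold higher in cells with an Mki67 UMI. Chaf1a, a subunit of the assembly factor that acts behind the replication fork, had 18.6, 11.7, 5.77 and 5.84 CPM. Of the S list, 21 of 38 measured genes passed 2-fold in neonatal over 7-week liver (5.85% of all genes) and 13 of 36 in spleen (3.13%). In liver over spleen 1 of 38, Rrm2, passed at 12 days (3.26%) and 0 of 28 at 7 weeks (1.55%). Of the G2M list, 35 of 44 were higher at 12 days in liver (5.85%) and 22 of 37 in spleen (3.13%), where 1, Lbr, was lower (3.12%). In liver over spleen 23 of 43 were higher at 12 days (3.26%) and 6 of 25 at 7 weeks (1.55%). By these counts the histone members (13 of 44) lay between the S and the G2M list in the neonatal tissue comparison. As for the members, a gene can pass the 10 CPM minimum through the higher library alone, which favours higher over lower counts. These lists share cells and libraries with the histone counts, and differences between lists were not tested. The lists also share genes with each other. Slbp, Casp8ap2 and Ccne2 of the processing list and Nasp and Chaf1b of the chaperones are also in the S list. Cenpa of the variants is also in the G2M list.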

How the data were processed

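The deposited matrices of the 4 libraries hold UMI counts for each gene in each barcode, not normalized. Per the file headers, the authors ran Cell Ranger 4.0.0. The submitters' processing notes name mm10 and Seurat 4.0.2, and no source used here names the annotation release. Such 5' counts depend on how reads that fit several near-identical histone genes are treated, which is not given either.

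Barcodes were kept from 500 genes upward and up to 10% mitochondrial UMIs. The automatic threshold of Scrublet marked 0% to 0.248% of cells and had not worked, so the cells with the highest scores were removed at 0.8% per 1000 cells (257, 305, 47 and 290 cells). Barcodes with UMIs of 3 or more markers of another lineage were also removed. UMIs were summed per library and given as CPM. There is 1 library per group, so no test was made. Precision at this depth is given by the intervals, and floors are 3 counts. Thinning drew 1000 UMIs per cell and left out 491, 316, 154 and 89 shallower cells. Ratios and the 2-fold rule were tested on simulated data. TMM factors came from edgeR 4.0.16. Positions and transcripts are from GENCODE vM21, promoters from RefSeq (GRCm38.p6). The members and lists were chosen with earlier results of these data known. Named genes are all members at 10 CPM or more in a library, the list members past 2-fold by size, and the 10 genes most like the sum. Alternatives covered the cell filters, the denominator, scaling, depth, Mki67 and the count rules.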

Additional observations from a re-analysis of the deposited data

How the results depend on the processing

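Of 280 alternative values of the main results, 140 moved by less than counting error or 1.5 times for counts, 134 moved further and 6 turned direction. Only ratios could be marked as turned, not the sums, counts and percentages among these values. Of 528 for the CPM of single genes, 262 stayed and 266 moved, and whether a direction between libraries turned was not checked for them. The cause of these moves was not tested. Values keep the order of libraries above, and ratios in the order neonatal liver over neonatal spleen, 7-week liver over 7-week spleen, neonatal over 7-week liver and neonatal over 7-week spleen, unless stated. Settings without barcodes under 1000 UMIs, and those on composition and on the 10 cells with the most histone UMIs for Mki67, were chosen after seeing the data. TMM scaling moved no sum beyond counting error.

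The histone sums were 1993, 1054 and (7-week spleen) 551 CPM in all deposited barcodes, 1856, 995, 825 and 580.4 at 1000 genes and 5% mitochondrial UMIs, and 1872, 1015 and (7-week spleen) 549 with doublets kept. They were 2553, 1452, 1101 and 826 without mitochondrial and ribosomal protein genes in the denominator, 1964, 1111, 905 and 592 in cells with a Foxp3 UMI, and 1102, 752, 587 and 431 after thinning. In cells of 2000 to under 4000 UMIs they were 405, 448, 394 and 355, in cells with no Mki67 UMI 459, 379, 441 and 342, and without the 10 cells with the most histone UMIs 1756, 923, 483 and 413. Without barcodes under 1000 UMIs the neonatal sums were 1849 and 1011.

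The ratios of the sums were 1.89, 2.56 and 1.91 in all barcodes (no value for the 7-week tissues is listed where it did not move, here and below) and 1.87, 2.25 and 1.71 at the stricter cell filter. They were 1.76, 1.33, 2.32 and 1.76 with the other denominator, 1.77, 1.53, 2.17 and 1.88 in Foxp3 cells, and 1.46, 1.88 and 1.75 after thinning. In cells of 2000 to under 4000 UMIs they were 0.904 (turned), 1.11, 1.03 and 1.26, with no Mki67 UMI 1.21, 1.29, 1.04 and 1.11, and without the 10 top cells 1.90, 1.17, 3.63 and 2.23. Leaving out 10 top cells from libraries of unequal size shifts such ratios by itself. Neonatal over 7-week spleen was 1.79 without barcodes under 1000 UMIs.

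Counts of histone genes at least 2-fold higher, with the share of all genes in brackets, were 0 of 10 (2.86%) between neonatal tissues, 3 of 14 (4.19%) with neonatal over 7-week liver and 4 of 14 (2.54%) over spleen in cells of 2000 to under 4000 UMIs, where 3 (3.55%) and 2 (3.24%) were lower at 12 days. After thinning they were 4 of 31 (3.35%), 1 of 15 (1.57%), 14 of 31 (5.77%) and 12 of 22 (3.07%), and 1 was lower at 12 days in liver (5.36%). With no Mki67 UMI they were 1 of 14 (2.57%) between neonatal tissues, and 5 of 17 (3.94%) and 2 of 13 (2.08%) with neonatal over 7-week liver and spleen, with 2 (5.04%) and 1 (2.95%) lower at 12 days. With 25 CPM required the same 3 counts were 6 of 16 (2.57%), 12 of 16 (4.83%) and 5 of 9 (2.12%). At a ratio of 1.5, 33 of 44 (7.91%) were higher between neonatal tissues, 4 of 15 (5.24%) between 7-week tissues, and 2 of 44 (16.4%) lower at 12 days in liver. With no minimum, 4 of 62 (9.15%) were higher and 2 (4.62%) lower between 7-week tissues, 1 of 62 (13.3%) lower at 12 days in liver, and 37 of 64 (9.53%) higher and 2 (8.42%) lower at 12 days in spleen. In Foxp3 cells 1 of 16 (1.88%) was higher in 7-week liver over spleen.

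The ratio between cells with and without Mki67 was 7.36, 9.83 and 8.34 in all barcodes, 7.69, 9.62 and (7-week spleen) 10.2 after thinning, 10.5, 9.98, 2.10 and 4.53 without the 10 top cells, and 13.7 and 12.2 in the neonatal libraries without barcodes under 1000 UMIs. It was 13.5, 15.1, 19.8 and 26.2 with 2 Mki67 UMIs required and 12.4, 11.1, 8.38 and 9.87 with Top2a in place of Mki67.

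By depth, the ratio of under 1000 to 2000 to under 4000 UMIs was 11.7 and 5.85 in all barcodes of the neonatal libraries and 15.7 in neonatal liver with no Mki67 UMI. The ratio of 8000 to under 16000 over 2000 to under 4000 UMIs was 6.49, 2.96 and (7-week spleen) 5.86 in all barcodes and 1.54, 0.997 (turned), 1.48 and 1.25 with no Mki67 UMI. The ratio of 5% or more over under 2% mitochondrial UMIs was 3.57 and 2.75 (both turned), 4.79 and 1.12 at 2000 to under 4000 UMIs, 1.48 and 1.38 (both turned), 2.56 and 1.73 with no Mki67 UMI, and 0.859 in neonatal liver without mitochondrial UMIs in the denominator. The Hist1h2ap share in cells with an Mki67 UMI was 27.0%, 24.6%, 31.1% and 37.3% without the 10 top cells and 21.2%, 15.96%, 53.0% and 43.4% at 4000 to under 8000 UMIs.

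No paired analysis was possible because each group has 1 library and no test was made. Depth limits single members most in 7-week liver, where 3 counts correspond to 0.422 CPM.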
